A study of Arabidopsis thaliana with 7 samples.

Results

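Cytosolic ribosomal proteins of the small subunit, the 40S particle, were followed across 7 Affymetrix ATH1 arrays of Arabidopsis thaliana seedlings. The genes were taken from a list of 60 loci, and a locus was kept where a probe set (the group of oligonucleotides that measures a transcript) was assigned to it alone. Of the 60 loci, 33 had such a probe set, out of 13286 genes in the whole data set, and each had 1. The 33 genes covered 18 of the 25 protein families in the list. Families SA, S5, S6, S15, S15a, S18 and S23 had no member in this list with a probe set of its own. In S3, S11, S13, S16, S17 and S20 only 1 listed gene had one, and its listed paralogues had none. Small-subunit loci outside the list are given further below. Of the other 27 loci, 11 were assigned to a probe set together with other genes, and 16 had no probe set assigned in the annotation used. The annotation gives these 33 genes by locus only, and the protein family named with each locus is background knowledge of how Arabidopsis ribosomal proteins are named.

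The small subunit binds the messenger RNA, moves it through a channel between its head and body, and holds the decoding site where codons meet transfer RNAs. In Arabidopsis a small family of paralogous genes, at scattered positions in the genome, encodes nearly every one of its proteins, and these genes are known to be most active in growing and dividing tissue. A small subunit needs a single copy of each of its proteins, so the transcripts of the families are commonly found to vary together.

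The study compared untreated seedlings of sta1, a mutant of a nuclear protein that the series title links to splicing of messenger RNA precursors, RNA turnover and stress tolerance, with wild type. There were 2 sta1 arrays and 5 wild-type arrays, 4 of Col-LUC and 1 of C24-LUC. Col and C24 are natural strains. The labels explain neither LUC nor the strain that carries the sta1 mutation. All plants grew at 22 °C on MS agar with 3% sucrose, under 16 h of light and 8 h of darkness, for 2 weeks. For the sta1 samples the growth text mentions ice1, a different mutant, and a treatment to come, but their titles say sta1 and untreated, and the titles decided the groups. Nothing in the labels says that replicates were grown separately, so a p-value here reflects how far these samples spread, and that spread may be technical.

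Median signals of the arrays ran from 208 to 216, and 63.9% to 65.3% of their probe sets had signals of 100 or more. Per the file headers, Col-LUC 1 came from the same chip lot as both sta1 arrays and was hybridised in the same session as sta1 1, and Col-LUC 1, C24-LUC and both sta1 arrays were run in the same calendar year. The headers of Col-LUC 4 were empty, so its lot is unknown, and Col-LUC 2, Col-LUC 3 and C24-LUC had lots that differed from each other and from that of sta1. The level of STA1 was not analysed here, so the sta1 labels were not checked against it. Of the leaf markers, RCA, which activates the carbon-fixing enzyme Rubisco, had signals between 12285 and 15664, and PRK and LHCB4.1 were bright as well. The root markers were uneven: PYK10, a beta-glucosidase of roots, had signals between 9533 and 13976, while the expansins EXPA18 and EXPA7 were dim, at 156.0 to 397 and 96.4 to 291.

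The first comparison asked how transcripts of the small subunit differ in seedlings of the splicing mutant. The difference, sta1 minus wild type, was positive in 32 of the 33 genes, with a median of 0.24 on the log2 scale, a 1.18-fold difference. Of all 15673 probe sets tested, 50.8% were on the positive side, and their median was 0.0083. None of the 33 genes passed the threshold of 0.05 after Benjamini-Hochberg adjustment (limma, 2 sta1 and 5 wild-type arrays; smallest adjusted p = 0.102), where 1.31% of all probe sets were called, 0.542% higher and 0.766% lower. In 10 of the 33 genes the unadjusted p lay under 0.05, all with a positive difference, against 11.6% of all probe sets in that direction. The 2 sta1 arrays exceeded each of the 5 wild-type arrays in 15 genes, or 45.5%, against 16.7% of all probe sets, and they lay below all of them in 0 genes, against 15.7%. These are whole seedlings, in which a different share of growing cells and a different amount of RNA per cell cannot be told apart.

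The same genes also varied together among the wild-type arrays. Relative to the mean of the 4 Col-LUC arrays, the median of the 33 genes was 0.19 on Col-LUC 1, -0.18 on Col-LUC 2, 0.078 on Col-LUC 3, -0.081 on Col-LUC 4, -0.0039 on C24-LUC, 0.23 on sta1 1 and 0.26 on sta1 2. Col-LUC 1 therefore stood nearer to the sta1 arrays than to Col-LUC 2 or 4. It lay above the Col-LUC mean in 31 genes, against 49.1% of all probe sets, while Col-LUC 2 did so in 3 genes, against 49.2%. Among the 4 Col-LUC arrays, Col-LUC 1 held the highest signal in 21 genes and Col-LUC 2 the lowest in 26, against 29% and 25% of all probe sets.

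**Figure D1:**
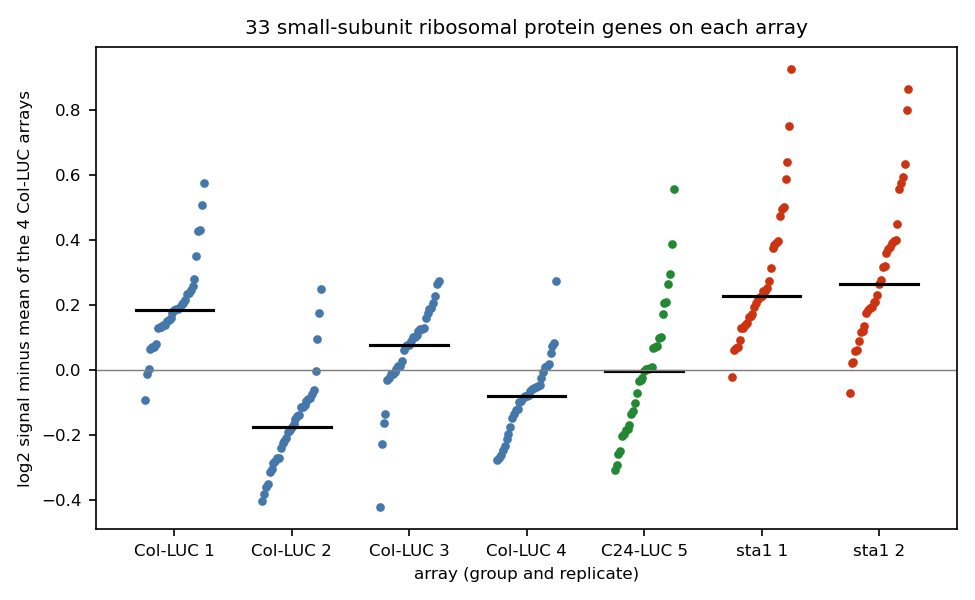
Log2 signal of each of the 33 genes (points) on each of the 7 arrays, as its difference from the mean of the 4 Col-LUC arrays, with the black bar at the median of the genes. The medians lie at 0.23 and 0.26 on the sta1 arrays and at 0.19 on Col-LUC 1, and the other wild-type arrays lie between -0.18 and 0.078.

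The distance between sta1 and wild type therefore differed from array to array. Both sta1 arrays lay above Col-LUC 2 in 33 of 33 genes, above Col-LUC 4 in 32, above C24-LUC in 29, above Col-LUC 3 in 24 and above Col-LUC 1 in 18. The corresponding shares of all probe sets ran from 39.8% to 44.3%. Within the shared session, sta1 1 minus Col-LUC 1 had a median of 0.066 over the 33 genes and sta1 1 was above in 22 genes, against 49.9% of all probe sets. With the chip lot as a block, which treats the unknown lot of Col-LUC 4 as separate and so sets sta1 against Col-LUC 1 alone, the median was 0.069 and 27 genes were positive, with 0 calls among them and over all probe sets (limma), where 1 gene and 2293 probe sets had an unadjusted p under 0.05. Without Col-LUC 1 the median was 0.29, and 2 genes passed, AT3G52580 (adjusted p = 0.0166) and AT2G32060 (adjusted p = 0.0498), where 4.13% of all probe sets were called higher. What part the chip lot and session have in the difference was not tested.

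**Figure D2:**
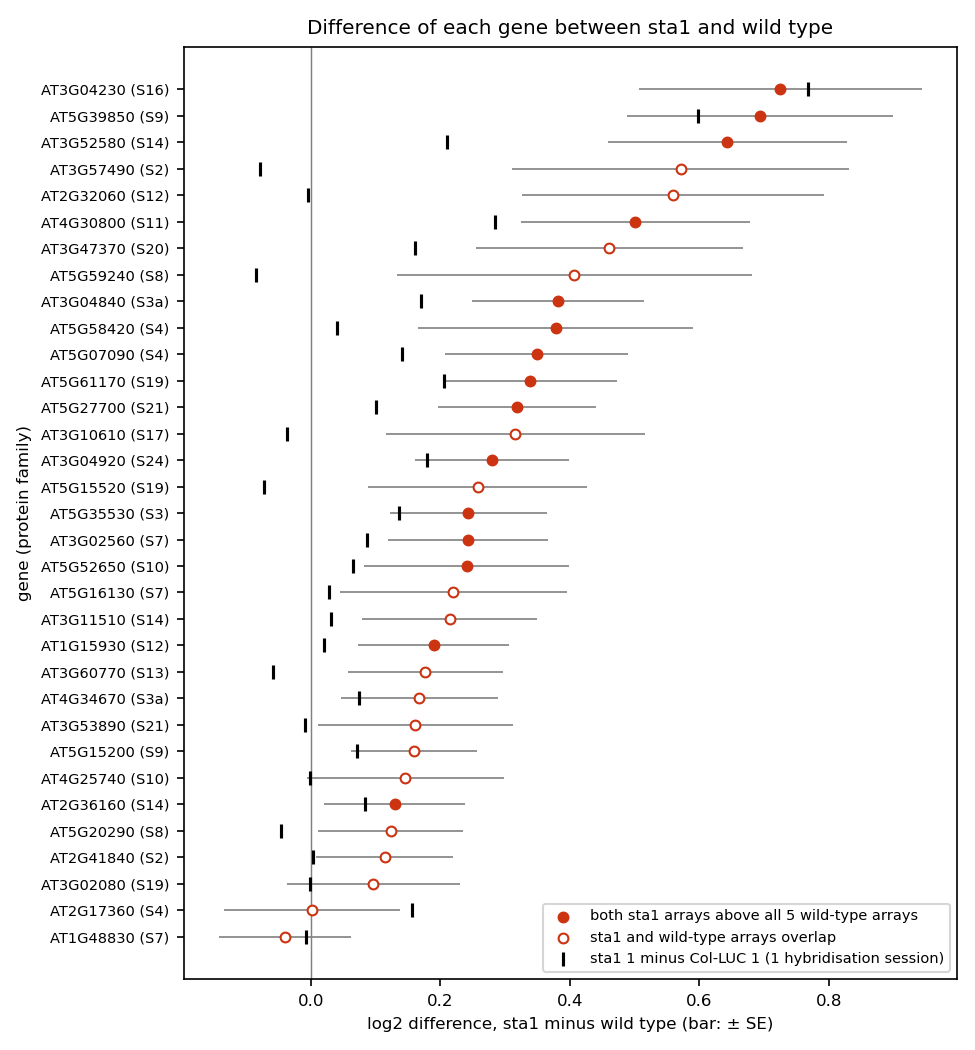
Log2 difference, sta1 minus wild type, of each gene (points, with bars of 1 standard error from limma), filled where both sta1 signals exceeded all 5 wild-type signals, which holds for 15 genes; the black ticks give sta1 1 minus Col-LUC 1. The points run from -0.04 to 0.73, and the ticks have a median of 0.066.

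The families S2, S3 and S9 line the channel through which the messenger RNA enters. In family S9, AT5G39850 gave signals of 668, 599.5, 448 and 725 on Col-LUC 1 to 4, 523 on C24-LUC and 1010.2 and 884 on sta1 1 and 2. Both sta1 arrays lay above every wild-type array, and the difference of 0.69 ± 0.20 (SE, 2 and 5 arrays) was the second largest of the 33 genes (unadjusted p = 0.009; limma adjusted p = 0.107). It was also one of 2 genes with a difference over 0.5 within the shared session, at 0.60. Its paralogue AT5G15200 gave 11144, 9392, 9984 and 10216 on Col-LUC 1 to 4, 10236 on C24-LUC and 11712 and 11035 on sta1 1 and 2. There sta1 2 lay below Col-LUC 1, and the difference was 0.16 ± 0.10.

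In family S2, AT3G57490 gave signals of 1206, 671, 793 and 672 on Col-LUC 1 to 4, 1059 on C24-LUC and 1143 and 1411 on sta1 1 and 2. Col-LUC 1 lay between the sta1 arrays, C24-LUC lay just under them and the other 3 Col-LUC arrays lay lower, and the difference of 0.57 ± 0.26 did not pass (limma adjusted p = 0.229). Its brighter paralogue AT2G41840 gave 7938, 6832, 8004 and 7650.2 on Col-LUC 1 to 4, 7993 on C24-LUC and 7957 and 8659 on sta1 1 and 2, with a difference of 0.11 ± 0.11. Of the S3 family, whose protein faces the incoming messenger RNA, 1 gene was measured. AT5G35530 gave 6629.9, 6337, 6559 and 6966 on Col-LUC 1 to 4, 5403 on C24-LUC and 7291 and 7764 on sta1 1 and 2. The sta1 arrays lay above all others, C24-LUC lay lowest, and the difference was 0.24 ± 0.12.

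The head of the subunit carries the families S10, S12, S16, S17, S19 and S20. The S16 protein reaches with its tail to the transfer RNA in the peptidyl site. Of its 3 listed genes, AT3G04230 alone had a probe set of its own. This gene had the largest difference of the 33, 0.73 ± 0.22, a 1.65-fold ratio (limma, unadjusted p = 0.00992, adjusted p = 0.112). Its signals were 405, 430.3, 309 and 320.5 on Col-LUC 1 to 4, 293 on C24-LUC and 689 and 478 on sta1 1 and 2. Both sta1 arrays were above all wild-type arrays, sta1 1 by far more than sta1 2, and the difference within the shared session was 0.77. The S20 gene AT3G47370, whose protein lies beside S3, gave 3996, 2281, 3159 and 2705 on Col-LUC 1 to 4, 3114 on C24-LUC and 4469 and 3814 on sta1 1 and 2. Col-LUC 1 lay between the sta1 arrays, and the difference of 0.46 ± 0.21 did not pass.

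In family S12, whose protein sits in the beak of the head, AT2G32060 gave signals of 5776, 3072, 4587 and 3356 on Col-LUC 1 to 4, 3786 on C24-LUC and 5759 and 6052 on sta1 1 and 2. Col-LUC 1 lay between sta1 1 and sta1 2 and well above the other Col-LUC arrays, so that the difference was 0.56 ± 0.23 over all arrays and -0.0043 within the shared session. AT1G15930, the other S12 gene, gave 7666, 6056, 7172 and 6405 on Col-LUC 1 to 4, 6672 on C24-LUC and 7778 and 7671 on sta1 1 and 2. The sta1 arrays lay just above Col-LUC 1, and the difference was 0.19 ± 0.12.

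Family S19, whose human member is among the genes mutated in Diamond-Blackfan anaemia, had 3 genes measured. AT5G61170 gave 5750.2, 4261, 5395 and 4854 on Col-LUC 1 to 4, 5019.7 on C24-LUC and 6630.1 and 6102 on sta1 1 and 2. The 2 sta1 signals exceeded all others, with a difference of 0.34 ± 0.13 (unadjusted p = 0.0347; limma adjusted p = 0.181). AT5G15520 gave 892, 620.2, 796 and 743 on Col-LUC 1 to 4, 794 on C24-LUC and 849 and 983 on sta1 1 and 2, and AT3G02080 gave 5851, 4886, 6088 and 5554 on Col-LUC 1 to 4, 4660.4 on C24-LUC and 5849 and 5658 on sta1 1 and 2. In both of these Col-LUC 1 reached or passed sta1 1, and the differences were 0.26 ± 0.17 and 0.10 ± 0.13.

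In family S10 the difference was 0.24 ± 0.16 for AT5G52650, with signals of 6015, 4187, 6016 and 4874 on Col-LUC 1 to 4, 5226 on C24-LUC and 6296 and 6031 on sta1 1 and 2. The sta1 arrays lay above all others, sta1 2 by a small step over Col-LUC 3. AT4G25740 gave 3401, 2577, 3545 and 3008 on Col-LUC 1 to 4, 2736 on C24-LUC and 3400.3 and 3309 on sta1 1 and 2, where Col-LUC 1 and 3 equalled or exceeded the sta1 arrays, and its difference was 0.15 ± 0.15. The S17 gene AT3G10610 gave 2176, 1450.0, 2167 and 1511 on Col-LUC 1 to 4, 1592 on C24-LUC and 2122 and 2238 on sta1 1 and 2. Col-LUC 1 and 3 lay between the sta1 arrays, and the difference was 0.32 ± 0.20.

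The platform, where the messenger RNA leaves, holds the families S3a and S14, and S13 binds the ribosomal RNA beneath it. In family S14, AT3G52580 had the smallest p of the 33 genes (0.00778; limma adjusted p = 0.102), with signals of 4266, 2783, 3139 and 2690.1 on Col-LUC 1 to 4, 2897 on C24-LUC and 4936 and 4778 on sta1 1 and 2. Both sta1 arrays lay above Col-LUC 1, which lay above the other wild-type arrays, and the difference was 0.64 ± 0.18 over all arrays and 0.21 within the shared session. Its paralogue AT3G11510 gave 8068, 6072, 7921 and 6532 on Col-LUC 1 to 4, 6756 on C24-LUC and 8246 and 8062 on sta1 1 and 2, a difference of 0.21 ± 0.14. The third, AT2G36160, gave 5683, 4986, 5789 and 5101 on Col-LUC 1 to 4, 5766 on C24-LUC and 6026 and 5906 on sta1 1 and 2, a difference of 0.13 ± 0.11. In AT3G11510 sta1 2 lay just below Col-LUC 1, while in AT2G36160 both sta1 arrays lay above all others by small steps.

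In family S3a, a contact of initiation factor eIF3, AT3G04840 gave signals of 9086, 6495, 8234 and 7986 on Col-LUC 1 to 4, 7926 on C24-LUC and 10227 and 10353 on sta1 1 and 2. The sta1 arrays lay above Col-LUC 1, the highest wild-type array, with a difference of 0.38 ± 0.13 (unadjusted p = 0.0196; limma adjusted p = 0.143). AT4G34670 gave 6447, 5435, 6997 and 5808 on Col-LUC 1 to 4, 6159 on C24-LUC and 6789 and 7022 on sta1 1 and 2, and there Col-LUC 3 lay between the sta1 arrays. Its difference was 0.17 ± 0.12. The S13 gene AT3G60770 gave 6754, 5373, 5983 and 5696 on Col-LUC 1 to 4, 6353 on C24-LUC and 6489.5 and 7123 on sta1 1 and 2. Col-LUC 1 lay between the sta1 arrays, and the difference was 0.18 ± 0.12.

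The body of the subunit holds the families S4, S7, S8, S11 and S24. Family S4 had 3 genes measured. AT5G07090 gave 4014, 3078, 3375 and 3160.4 on Col-LUC 1 to 4, 3915 on C24-LUC and 4425 and 4459 on sta1 1 and 2, and AT5G58420 gave 4118, 2533, 3878 and 2691 on Col-LUC 1 to 4, 3724 on C24-LUC and 4234 and 4407 on sta1 1 and 2. In both, no wild-type signal reached those of sta1, and the differences were 0.35 ± 0.14 and 0.38 ± 0.21, the first with an unadjusted p of 0.0378 by limma. AT2G17360 gave 3354, 3370.5, 3917 and 3714 on Col-LUC 1 to 4, 4397 on C24-LUC and 3739.7 and 3734 on sta1 1 and 2, with C24-LUC highest and the sta1 arrays inside the Col-LUC range. Its difference was 0.0021 ± 0.14, and its sign turned with quantile normalization (-0.022) and with median centring (-0.0016).

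Family S7 held the gene with the lowest difference of the 33 and the only negative one. AT1G48830 gave 4842, 4576, 4984 and 5175 on Col-LUC 1 to 4, 4776 on C24-LUC and 4819 and 4649 on sta1 1 and 2, with the sta1 arrays inside the Col-LUC range and a difference of -0.04 ± 0.10. AT3G02560 gave 5880.4, 4942, 5837 and 4826 on Col-LUC 1 to 4, 4872 on C24-LUC and 6246 and 6179 on sta1 1 and 2, and AT5G16130 gave 7944, 5329, 7999 and 6463 on Col-LUC 1 to 4, 5941 on C24-LUC and 8099 and 7410.4 on sta1 1 and 2. Their differences were 0.24 ± 0.12 and 0.22 ± 0.18; sta1 stood clear of wild type in the first and overlapped with it in the second.

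In family S8, AT5G59240 was dim, at 165, 147, 126 and 119 on Col-LUC 1 to 4, 203 on C24-LUC and 156 and 251 on sta1 1 and 2. Its sta1 arrays differed from each other by 0.69 on the log2 scale, the widest gap among the 33 genes, where the median gap was 0.072, and its difference was 0.41 ± 0.27. AT5G20290 was bright, at 15198, 13114, 13839.7 and 13221 on Col-LUC 1 to 4, 11629 on C24-LUC and 14719 and 14372 on sta1 1 and 2, with Col-LUC 1 above both sta1 arrays and a difference of 0.12 ± 0.11. The S11 gene AT4G30800 gave 669.7, 663, 524 and 512 on Col-LUC 1 to 4, 706 on C24-LUC and 816 and 912 on sta1 1 and 2. Both sta1 arrays lay above C24-LUC, the highest wild-type array, and the difference was 0.50 ± 0.18 (unadjusted p = 0.0212; limma adjusted p = 0.148). The S24 gene AT3G04920 showed the same order of groups, at 3589, 3076, 3300.4 and 3150.3 on Col-LUC 1 to 4, 3686 on C24-LUC and 4066 and 4074 on sta1 1 and 2, with a difference of 0.28 ± 0.12.

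Family S21 belongs to the proteins found only in eukaryotes and takes part in the maturation of the small subunit in yeast. AT5G27700 gave 9687, 7498, 9476 and 8438 on Col-LUC 1 to 4, 8534 on C24-LUC and 10389.9 and 11296 on sta1 1 and 2, with both sta1 arrays above all others and a difference of 0.32 ± 0.12 (unadjusted p = 0.03; limma adjusted p = 0.171). AT3G53890 gave 6929, 5087, 6316 and 5400.1 on Col-LUC 1 to 4, 5189.8 on C24-LUC and 6887 and 5990.0 on sta1 1 and 2, where Col-LUC 1 lay above both sta1 arrays, and its difference was 0.16 ± 0.15.

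In size, 6 of the 33 differences lay over 0.5, 15 between 0.2 and 0.5 and 12 at or under 0.2, with standard errors between 0.10 and 0.27. The genes with small signals tended to have the larger differences on the deposited scaling. Across the 33 genes, which share the arrays and the scaling, Spearman's rho between the mean wild-type log2 signal and the difference was -0.58. Pearson's r was -0.62. Over all tested probe sets the rho was -0.095. Signals of different probe sets depend on the probes as well as on the transcript, so these coefficients describe the probe sets and rank no gene by abundance. They also depend on the scaling. With quantile normalization the differences of the bright AT5G20290 and AT5G15200 rose from 0.12 to 0.32 and from 0.16 to 0.28. Both are the brighter paralogues of their families, S8 and S9. The other genes moved less, and the dim AT3G04230 and AT5G39850 stood at 0.74 and 0.69. The spread among the Col-LUC arrays differed as widely, from a coefficient of variation of 3.93% for AT5G35530 of family S3 and 5.15% for AT1G48830 of S7 to 29.6% for AT2G32060 of S12 and 30.4% for AT3G57490 of S2, with a median of 13.6%.

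The paralogues of a family were then set against each other, to ask whether they differ unequally between sta1 and wild type. For each of 11 families with at least 2 genes measured, the log2 ratio of a paralogue to the brightest paralogue was taken on each array, which gave 15 pairs, and the contrast was the mean ratio in sta1 minus that in wild type. None of the 15 passed. The smallest two-sided p that the exact permutation test used here could give, over the 21 arrangements of 2 and 5 arrays, was 0.0952. After adjustment over the pairs the smallest p of this test was 0.357. On the deposited scaling the contrasts had a median size of 0.24 and a largest size of 0.53.

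The sta1 arrays lay outside the wild-type range in 4 of the 15 pairs. These are the pairs at that smallest p of the exact permutation test, so the p adds nothing to the count. With arrays labelled at random, a share of 0.0952 of pairs would be expected there. Single probe sets exceeded that share: of all 15673, 16.7% lay above and 15.7% below every wild-type array. The count of 4 cannot be judged by the share for random labels. Some pairs share a reference gene, so the pairs are not independent. No share over other pairs of probe sets is given. On the deposited scaling the largest was in family S9, where AT5G39850 against AT5G15200 had a contrast of 0.53, with an SD of the ratio over the 5 wild-type arrays of 0.26. Col-LUC 4 was the nearest wild-type array there, at -3.82 against -3.54 and -3.64 on sta1 1 and 2. The sizes depend on the scaling. With quantile normalization the difference of AT5G15200 rose from 0.16 to 0.28, with AT5G39850 at 0.69. In S8 that of AT5G20290 rose from 0.12 to 0.32, with AT5G59240 at 0.41. The ratio of AT3G52580 to AT3G11510 in S14 had a contrast of 0.43 (SD 0.16). There Col-LUC 1, at -0.92, was the wild-type array nearest to sta1, at -0.74 and -0.75, and the others ran from -1.34 to -1.13. The ratio of AT5G61170 to AT3G02080 in S19 had a contrast of 0.24 (SD 0.13). In that pair sta1 2 stood only just above C24-LUC, at 0.109 against 0.107, and the Col-LUC arrays ran from -0.20 to -0.025. In S3a the ratio of AT4G34670 to AT3G04840 lay below the wild-type range, with a contrast of -0.21 (SD 0.12). Col-LUC 1 was nearest here as well, at -0.50 against -0.59 and -0.56 on sta1 1 and 2. In the other 11 pairs the arrays overlapped. AT3G57490 against AT2G41840 in S2 had a contrast of 0.46, with Col-LUC 1 between the sta1 arrays, and AT2G32060 against AT1G15930 in S12 one of 0.37, again with Col-LUC 1 in that range. In S4, AT2G17360 against AT5G07090 had a contrast of -0.35, while AT5G58420 against the same gene had 0.03. The remaining 7 contrasts ran from -0.26, for AT1G48830 against AT5G16130 in S7, to 0.28, for AT5G59240 against AT5G20290 in S8. Hybridisation of a transcript to the probes of its paralogue was not tested.

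**Figure D3:**
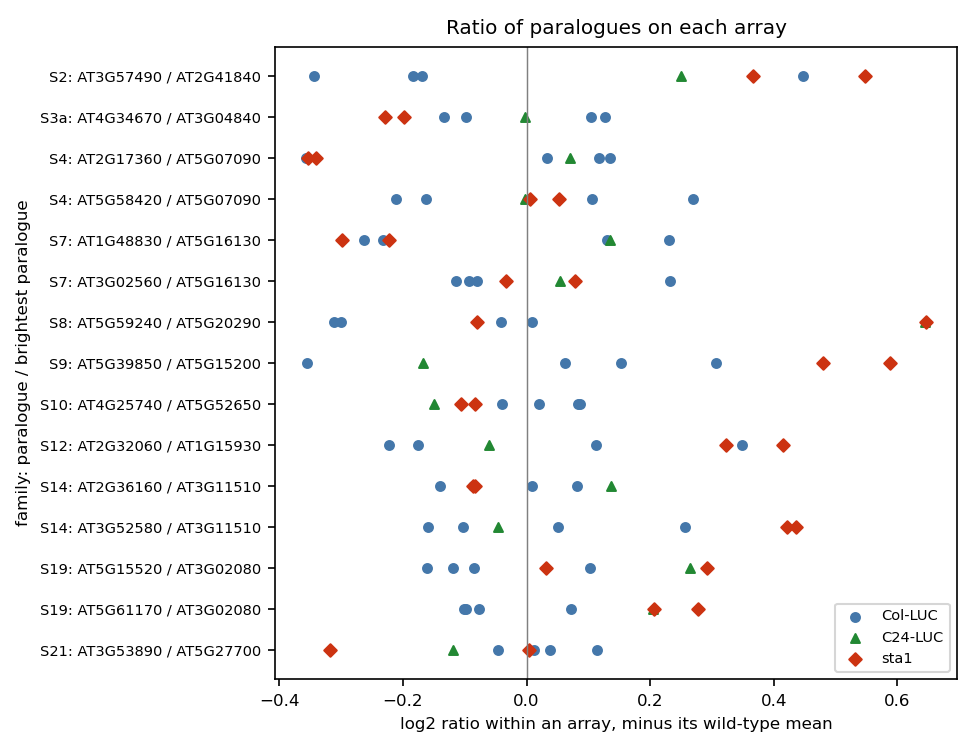
Log2 ratio of a paralogue to the brightest paralogue of its family on each of the 7 arrays, minus the mean of the 5 wild-type arrays, for 15 pairs (circles, Col-LUC; triangles, C24-LUC; diamonds, sta1). The diamonds lie outside the wild-type range in 4 pairs. They lie above it in S9, in 1 pair of S14 and, only just, in 1 pair of S19, and below it in S3a.

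The second comparison asked how these genes differ between the wild-type strains. On the C24-LUC array 16 genes lay above the Col-LUC mean and 17 below, with a median difference of -0.0039, against 54.2% positive and a median of 0.035 over all probe sets. With quantile normalization 19 genes were positive and the median was 0.036, and with median centring 12 were positive and the median was -0.045. None passed (limma, 1 C24-LUC and 4 Col-LUC arrays; smallest adjusted p = 0.423, smallest unadjusted p = 0.0581), where 1.37% of all probe sets were called, 0.204% higher and 1.16% lower. C24-LUC lay above all 4 Col-LUC arrays in 4 genes, AT5G59240, AT2G17360, AT4G30800 and AT3G04920, and below them in 4, AT3G04230, AT5G35530, AT3G02080 and AT5G20290, against 24.9% and 21% of all probe sets. The largest differences were 0.56 in AT5G59240, 0.39 in AT3G57490 and -0.31 in AT3G04230. In family S8 the paralogues lay on opposite sides, AT5G59240 at 0.56 and AT5G20290 at -0.25, and this contrast was not tested. C24-LUC has 1 array, and its lot differs from every other lot recorded, so that strain, array and lot cannot be told apart. The Col-LUC arrays enter both comparisons.

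Other genes of the translation machinery are given beside the same shares of all probe sets, 1.31% called, 11.6% with a positive and 11.9% with a negative difference at an unadjusted p under 0.05, and 50.8% positive. Of 34 further loci of the small subunit, 15 had a probe set of their own and 10 passed the filter on low signals, and all 10 differences were positive, with a median of 0.48 and 0 calls (limma); 4 had an unadjusted p under 0.05. The smallest p-values belonged to AT2G45710, at 0.48 ± 0.14, and AT2G21580, at 0.67 ± 0.21 (limma adjusted p = 0.0979 and 0.118). For the large subunit, the 60S particle, 75 of 125 loci were tested, of which 74 were positive, with a median of 0.39, 0 calls and 44 at an unadjusted p under 0.05. The smallest p-values belonged to AT4G02230, at 0.62 ± 0.12, and AT3G22230, at 0.50 ± 0.12 (limma adjusted p = 0.0541 and 0.0774). Ribosome assembly factors had the largest median of these lists, 0.68, with 12 of 12 positive and 11 at an unadjusted p under 0.05, again with 0 calls by limma. They included NOB1 (AT5G41190), whose yeast counterpart makes the final cut in the RNA of the small subunit, at 0.81 ± 0.19 (limma adjusted p = 0.0767), and YAO, a nucleolar protein, at 0.87 ± 0.21. Among 12 translation factor genes 10 were positive, with a median of 0.28 and 0 calls by limma; 4 positive and 1 negative difference had an unadjusted p under 0.05. The smallest p-values belonged to AT2G40290, at 0.62 ± 0.19, and EIF4A-2, an RNA helicase of initiation, at 0.41 ± 0.14.

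For sta1 1 minus Col-LUC 1, the medians were 0.12 for the further small-subunit genes, with 8 of 10 above 0, 0.17 for the large subunit, with 67 of 75 above 0, 0.44 for the assembly factors, with 12 of 12, and 0.15 for the translation factors, with 9 of 12. The corresponding values of the 33 genes were 0.066 and 22 of 33. The differences between these lists were not tested.

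**Figure D4:**
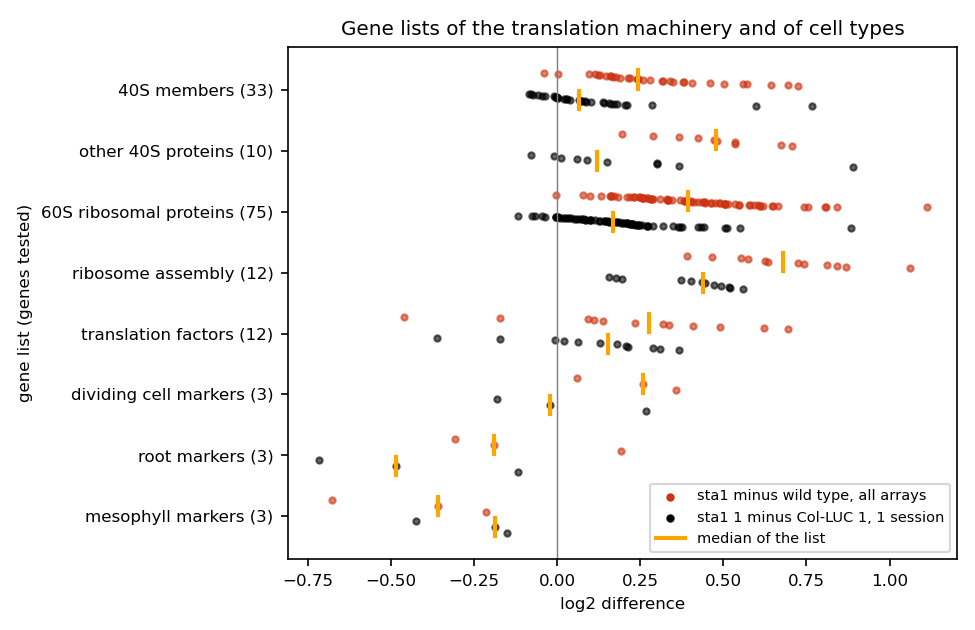
Log2 differences of single genes (points) in the 33 small-subunit genes, 4 other lists of the translation machinery and 3 lists of cell type markers, over all arrays (red) and between sta1 1 and Col-LUC 1 (black), with the median of each list in orange. The median of the 33 genes is 0.24 over all arrays and 0.066 between these 2 arrays, and that of the assembly factors is 0.68 and 0.44.

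Markers of the cell types in a seedling moved beside these genes as follows. The 3 measured markers of dividing cells, of 13 in the list, had differences of 0.36 for PRL, a subunit of the helicase that opens replication origins, 0.26 for the mitotic kinase AUR2 and 0.06 for its relative AUR1, all with overlapping groups, and their summed signal lay between 1392.5 and 1611 on the sta1 arrays, between 1302 and 1404 on the Col-LUC arrays and at 1094 on C24-LUC. The 3 root markers had differences of -0.19 for PYK10, -0.31 for EXPA18 and 0.19 for EXPA7, and their sum lay between 9906 and 11490.2 in sta1 and between 10294 and 14437 in Col-LUC, with 13444.5 on C24-LUC. For each of the 3 mesophyll markers the sta1 signals lay under every wild-type signal, against 15.7% of all probe sets, and 1 was called lower, against 0.766%. That gene, LHCB4.1, an antenna protein of photosystem II, fell by 0.68 (limma adjusted p = 0.036) and by 0.43 within the shared session, and PRK and RCA had differences of -0.36 and -0.21. Their sum lay between 32611 and 34646 in sta1 and between 41365 and 47915 in Col-LUC, with 45509.8 on C24-LUC. The differences of AUR1 (SE 0.16), EXPA7 (SE 0.39) and EXPA18 (SE 0.34) were smaller than their standard errors. Within the shared session PRL was at 0.27, AUR2 at -0.020 and AUR1 at -0.18. There PYK10, EXPA18 and EXPA7 were at -0.12, -0.72 and -0.49, and PRK and RCA at -0.19 and -0.15. What part the marked cell types have in the differences of the ribosomal protein genes was not tested. The seed and floral lists had no gene with a probe set of its own.

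Other settings changed the calls among the 33 genes. With array weights, which reweight all 7 arrays, 12 of them passed, where 11% of all probe sets were called higher. With the 4 arrays of 1 calendar year 0 of the 33 genes and 0 of all probe sets passed by limma, and the median was 0.14. In that fit 31 genes were positive, against 49.8% of all probe sets, and 2 of 33 had an unadjusted p under 0.05, against 2375 of 15673 probe sets.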

How the data were processed

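Transcripts were measured in seedlings on 7 Affymetrix ATH1 arrays, 2 of sta1, 4 of Col-LUC and 1 of C24-LUC, grouped and numbered by the sample titles. Per the submitters' processing notes and the labels, the deposited intensity values are the authors' MAS5 signals, 1 per probe set, with global scaling to a target of 500; the sources used here do not name its version. No array was pooled, and no pair of arrays held the same values.

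After 64 control probe sets were left out, signals under 50 were set to 50 and converted to log2, and 15673 of 22746 probe sets were tested, those reaching 100 on 2 or more arrays. The test was limma 3.58.1 under R 4.3.3 (lmFit, eBayes with trend), with Benjamini-Hochberg adjustment over all tested probe sets and a threshold of 0.05. The sta1 arrays were compared with all 5 wild-type arrays. C24-LUC was compared with Col-LUC in a 3-group fit that assumes the single array to vary like the others. Ratios of paralogues were compared by a two-sided exact permutation test over arrays. Precision is limited by the number of arrays. Data were simulated for the comparison of sta1 with wild type over 15673 probe sets. There 82 of 100 changes of 2 on the log2 scale and 37 of 100 changes of 1 were recovered, with 5 false calls. All differences of the small-subunit genes followed here were smaller than these changes, the largest being 0.73 in AT3G04230. Recovery at such sizes was not simulated, so the counts cannot say how many of these genes could have passed.

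Genes were named from the platform annotation, where 13513 probe sets had 1 gene, of which 13436 matched a RefSeq table of the TAIR10.1 assembly. The genes and lists were chosen with earlier results of these data known. Signals on all arrays are given for the 5 largest and 5 smallest differences and for families with at least 2 measured paralogues, and were added for the remaining genes. Of each other list the called genes or the 2 with the smallest p were named. Alternatives varied the floor, filter, scaling, array weights, trend, blocks and the arrays included. Promoter and protein sequences were not used here.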

Additional observations from a re-analysis of the deposited data

How the results depend on the processing

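Of the 33 genes, 0 passed for sta1 with the settings of the report and under every alternative except array weights (12) and leave-one-out, which gave 0 to 2, the 2 without Col-LUC 1; the median of 0.24 moved to 0.069 with the chip lot as a block and lay between 0.22 and 0.29 with an array left out. Over all probe sets the 205 calls became 88 with no filter, 3468 with array weights, 0 to 1381 with an array left out, and 0 with the replicate block, the chip lot as a block or the arrays of the same year. For C24-LUC the 214 calls became 392 with no filter, 400 with array weights and 53 to 480 with an array left out. The largest leave-one-out counts, 1381 and 480, came without Col-LUC 1, and the 0 calls for sta1 came without either sta1 array, which leaves 1, assumed to vary like the wild type. The 53 for C24-LUC came without either sta1 array, which enters only the shared spread. The cause of these changes in the counts was not tested.

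The following signs turned. For sta1, AT2G17360 was at -0.022 with quantile normalization, -0.0016 with median centring, -0.040 over arrays of the same year and -0.036 to 0.061 with an array left out. The chip lot as a block gave -0.036 in AT5G16130, -0.063 in AT5G20290, -0.020 in AT4G25740, -0.025 in AT3G02080 and -0.11 in AT3G53890. For C24-LUC, quantile normalization gave 0.0087 in AT1G15930, 0.022 in AT5G61170 and 0.046 in AT5G27700. Median centring gave -0.035 in AT3G04840, -0.037 in AT4G34670, -0.031 in AT5G15200 and -0.038 in AT5G52650. Array weights gave 0.010 in AT1G15930, 0.0013 in AT2G32060, 0.037 in AT5G61170 and 0.0023 in AT5G27700. With an array left out, the C24-LUC values ran from -0.082 to 0.031 in AT1G15930, -0.24 to 0.066 in AT2G32060, -0.21 to 0.016 in AT3G52580, -0.084 to 0.060 in AT5G61170 and -0.11 to 0.017 in AT5G27700. In the same fits they ran from -0.088 to 0.074 in AT3G04840, -0.055 to 0.067 in AT4G34670, -0.028 to 0.054 in AT5G15200, -0.10 to 0.072 in AT5G52650, -0.024 to 0.15 in AT5G15520 and -0.059 to 0.21 in AT3G47370. Leaving out an array was added for the paralogue contrasts after seeing the data, and they ran from -0.034 to 0.081 for AT3G02560 against AT5G16130, -0.024 to 0.097 for AT5G58420 against AT5G07090, -0.080 to 0.65 for AT5G59240 against AT5G20290 and -0.32 to 0.0047 for AT3G53890 against AT5G27700.

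Only replicate numbers 1 and 2 occur in both sta1 and wild type, and same-numbered arrays correlated at 0.19 and -0.0070 in their deviations. With 2 sta1 arrays the deviations of one mirror those of the other, so these values cannot decide on pairing. The numbers were not taken as pairs, although Col-LUC 1 and sta1 1 shared a session. With the replicate block the median was 0.29, 33 of 33 genes were positive with AT1G48830 at 0.0080, and 0 were called. For C24-LUC no replicate block and no fit without its array could be made. Averaging probe sets or leaving out unspecific ones changed nothing, because each gene had 1 probe set of the specific type.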

Other observations

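A further 11 loci of the small-subunit list are measured only by probe sets that are assigned several genes, so no gene is named from them. There were 6 such probe sets, and all 6 had a positive difference of sta1 minus wild type, between 0.18 and 0.58 on the log2 scale with a median of 0.31. In 5 of them the sta1 signals exceeded every wild-type signal, against 16.7% of all probe sets. By limma 0 passed, the smallest adjusted p being 0.135, where 1.31% of all probe sets were called, and 3 had an unadjusted p under 0.05 with a positive difference, against 11.6%. Between sta1 1 and Col-LUC 1 the median was 0.15, with sta1 1 above in 6 of 6. For C24-LUC against Col-LUC the median was -0.02, with 3 of 6 positive and 1 called, against 1.37% of all probe sets.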
